A study of Mus musculus with 9 samples.

Results

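The genes described here are 10 that encode the enzymes of serine synthesis, the enzymes that pass the carbon of serine into the folate cycle, the mitochondrial enzyme of proline synthesis and a carrier of serine across the plasma membrane: Phgdh, Psat1, Psph, Shmt1, Shmt2, Mthfd2, Mthfd1l, Aldh1l2, Slc1a4 and Pycr1. They were matched by gene symbol and are 10 of the 24453 genes listed for the RNA sequencing experiment. They were picked with the differences between these same libraries in view, so their levels and differences are given as a description and without a test. The experiment held 3 libraries per group, each from cells pooled from 3 to 5 mice. Wild-type mice and the MC4R-KO line were C57BL/6J, and the background of the Col1a2-GFP Tg line is not given in the sources used here. HSCs, the steady-state hepatic stellate cells, came from healthy livers of wild-type mice by density gradient centrifugation and carried no GFP. CCl4-fib were CD45- GFP+ cells sorted from Col1a2-GFP Tg mice, which were not crossed with MC4R-KO mice, after intraperitoneal CCl4 2 times per week for 8 weeks. NASH-fib were CD45- GFP+ cells sorted from MC/COL mice, the cross of Col1a2-GFP Tg and MC4R-KO mice, that were male, 8 weeks old at the start and fed WD (Western diet) for 20 weeks. In the sorted groups GFP was driven by the collagen α2(I) promoter, so it marks cells that use this promoter and not stellate cells alone, and the isolation method cannot be told apart from the step from HSCs to either fibroblast group.

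Cells make serine from a glycolytic intermediate in a short chain of reactions: Phgdh oxidizes phosphoglycerate, Psat1 transfers an amino group from glutamate, and Psph removes the phosphate. Serine hydroxymethyltransferases then split serine into glycine and a carbon unit bound to folate, Shmt2 in mitochondria and Shmt1 in the cytosol, and the mitochondrial folate enzymes oxidize that unit to formate or carbon dioxide. The carbon units feed the synthesis of purines and thymidylate, while glycine and proline are the most abundant amino acids of collagen. Several of these genes are known targets of the transcription factor ATF4, which is made when amino acids run short.

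In CCl4-fib, the mRNAs of all 3 serine synthesis enzymes stood above those of HSCs in every library, and so did Pycr1, Aldh1l2, Mthfd2 and Shmt2, whereas Shmt1 was lower. In NASH-fib the pattern was partial. Psat1 reached a mean of 178 ± 97.1 normalized reads (SD, n = 3), against 237 ± 52.2 in CCl4-fib and 7.36 ± 2.64 in HSCs. Phgdh, the enzyme of the first step, stayed at 12.1 ± 8.14 in NASH-fib against 152.6 ± 4.72 in CCl4-fib, and Pycr1 at 6.83 ± 3.56 against 88.5 ± 2.65. Shmt1 was at 139 ± 74.3 in NASH-fib, 22.6 ± 6.74 in CCl4-fib and 111 ± 70.2 in HSCs.

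All values are the deposited normalized reads per gene, in which every library sums to the same total, and the reads behind them could be recovered. Libraries held between 3071070 and 5634273 reads on genes, so 1 read was worth between 0.794 and 1.46 in these units, and 3 reads, taken as the floor, between 2.38 and 4.37. The floor and the counting intervals below cover counting error only, because the reads were amplified and carry no molecular identifiers. The labels do not say whether the pools of a group came from separate cohorts, so the spread between libraries may be partly technical. The summed values of 8 stellate cell markers ran from 44660 to 57607 in HSCs, from 5778 to 18098 in CCl4-fib and from 18642 to 32130 in NASH-fib. Those of 8 genes of collagen-producing fibroblasts ran from 7913 to 14442, from 48007 to 55532 and from 25284 to 29576, with every marker of both lists read in every group. NASH-fib replicate 1 stood apart from the other NASH-fib libraries: across tested genes, its deviations from the group mean had a correlation of 0.65 with those of HSC replicate 2, with which it shares a date-like label, and of -0.13 with those of CCl4-fib replicate 1, which carries that label too.

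Promoter sequence was read for 9 of the 10 genes from the RefSeq table for GRCm38.p6, the build of the deposited coordinates, as 250 bases before and 50 after the start of a transcript. Aldh1l2 is the gene without an entry. The letters searched on both strands were TGATGNAA, the composite C/EBP-ATF element that ATF4 recognises, and CACGTG, the E-box that Myc recognises. The composite element was found at Pycr1 and Slc1a4, 2 of 9 genes, and at 1219 of all 27025 genes in the table (4.51%). It was also found at 15 of 86 other genes of the pathways described below, among them Asns (asparagine synthetase), whose element lies close to its start and is shown for comparison. These other genes include a list of the ATF4 and amino acid response, written from general knowledge. A raised share of this element is thus partly built in, and nothing is read from it. The E-box was found at 0 of 9 of the genes, at 13 of the 86 other pathway genes (15.1%) and at 2187 of all 27025 genes (8.09%). The windows below run 5′ to 3′ along the gene, with the element in capitals. They lie on the minus strand of the genome at chr11:120643814-120643881 (Pycr1), chr11:20332710-20332747 (Slc1a4) and chr6:7693210-7693262 (Asns).
Pycr1: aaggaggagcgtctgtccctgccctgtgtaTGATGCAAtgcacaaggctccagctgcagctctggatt
Slc1a4: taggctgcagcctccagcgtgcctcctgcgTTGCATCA
Asns: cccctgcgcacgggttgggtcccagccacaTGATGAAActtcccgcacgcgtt
With the first transcribed base counted as 0, the element spans -103 to -96 at Pycr1 and -4 to 3 at Slc1a4, where it is read on the opposite strand. The starts of Pycr1 and Asns in this table lie upstream of those that the deposited annotation gives. A match describes these letters only. The element of Slc1a4 crosses the start of the gene, while those of Pycr1 and Asns lie before it.

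**Figure D1:**
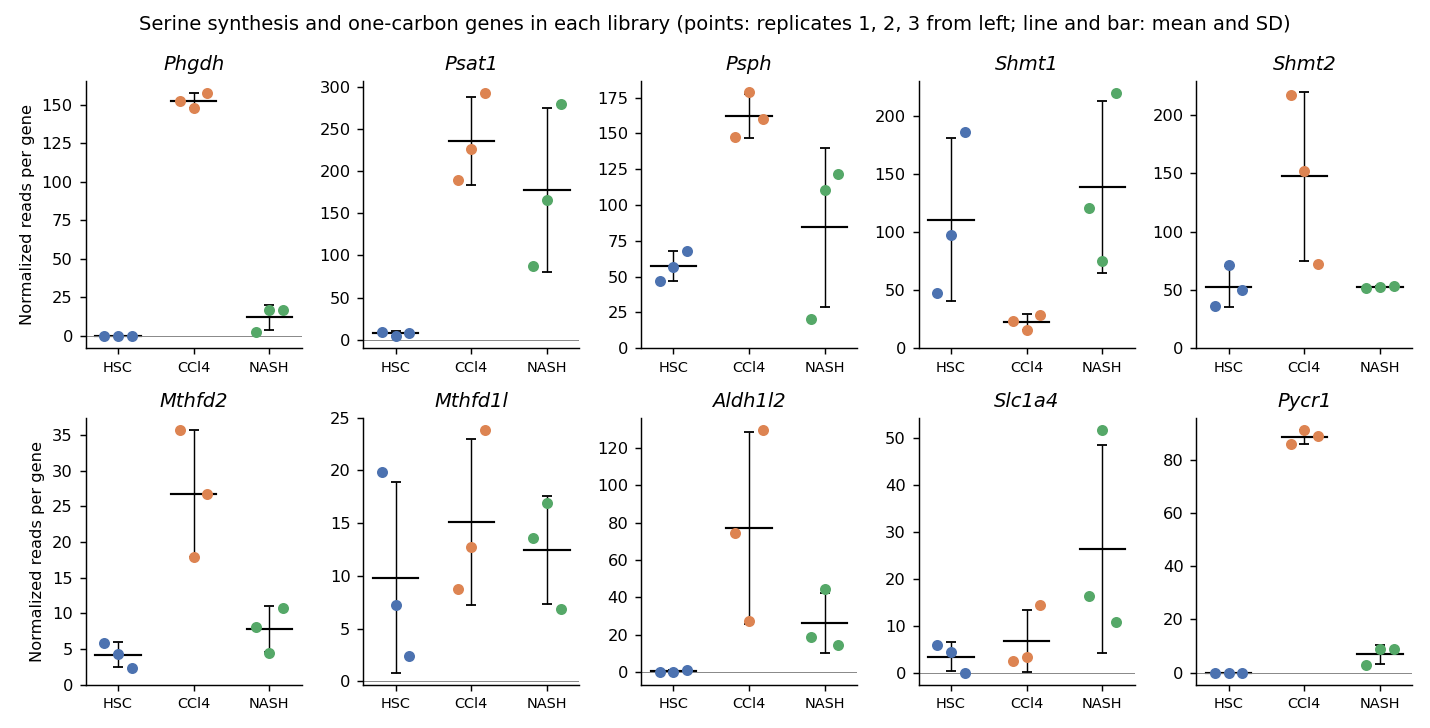
Normalized reads per gene (y axis, linear, a separate scale per gene) of the 10 genes in each of 9 libraries, by group; points are replicates 1, 2 and 3 from left to right, and the line and bar are the mean and SD (n = 3). Phgdh and Pycr1 have 0 reads in the 3 HSC libraries and are tightly grouped in CCl4-fib, and Shmt1 is the gene with its 3 CCl4-fib points below all others.

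Phgdh (chromosome 3, 98313171 to 98339969, minus strand) had 0 reads in each HSC library. Its value was 152, 148 and 157 in CCl4-fib replicates 1, 2 and 3, from 192, 174 and 165 reads. In NASH-fib it was 2.72, 16.9 and 16.7, from 2, 19 and 17 reads. The groups did not overlap, and CCl4-fib libraries lay within a few percent of each other. NASH-fib replicate 1, with 2 reads, was under the floor of 3 reads. The separation of NASH-fib from HSCs thus rests on replicates 2 and 3. Against the mean floor of the HSC libraries, the CCl4-fib mean of Phgdh was at least 39.9-fold higher and the NASH-fib mean at least 3.17-fold higher. Between the fibroblast groups it was 3.86 lower in NASH-fib on the log2(value + 1) scale (-3.86, SE 0.69), a scale that understates the change of low values.

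Psat1 (chromosome 19, 15905123 to 15925059, minus strand), the aminotransferase of the second step, had values of 9.35, 4.37 and 8.37 in HSCs, from 8, 3 and 7 reads. CCl4-fib libraries had 189.7, 227 and 293, and NASH-fib libraries 87, 166 and 280.1. Every fibroblast library of either kind was above every HSC library, while the fibroblast groups overlapped. The log2 differences were 4.86 for CCl4-fib and 4.32 for NASH-fib against HSCs, and -0.54 (SE 0.51) for NASH-fib against CCl4-fib, so the last was about as large as its error.

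Psph (chromosome 5, 129765558 to 129787253, minus strand), the phosphatase of the last step, was the serine synthesis gene with appreciable reads in HSCs, at 46.8, 56.8 and 68.2. It had 148, 179 and 160.3 in CCl4-fib, all above HSCs and NASH-fib. In NASH-fib it had 20.4, 110.4 and 122, with replicate 1 below and replicates 2 and 3 above all HSC libraries. The log2 difference was 1.5 for CCl4-fib and 0.21 for NASH-fib against HSCs, each with an SE of 0.62. Reads of both strands were counted, and Psph shares 452 exon bases with Cct6a on the opposite strand. Cct6a had values of 262 to 746 in HSCs, 351 to 676 in CCl4-fib and 280.1 to 541 in NASH-fib, and its part in the values of Psph was not tested.

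Per kilobase of exon, the scale on which genes can be compared, the levels of the 3 enzymes summed to 34.9 to 48.5 in HSCs, 267 to 325 in CCl4-fib, and 55.1, 158 and 218 for replicates 1, 2 and 3 of NASH-fib. Phgdh made up 30.8%, 26.4% and 26.1% of that sum in the CCl4-fib libraries, and 2.66%, 5.76% and 4.12% in the NASH-fib libraries. In HSCs its share was 0, and Psph made up most of the sum. The serine enzymes thus stood at similar levels per kilobase in CCl4-fib (82.2 for Phgdh, 109 for Psat1 and 106 for Psph), whereas in NASH-fib Phgdh was at 6.52 beside 82.2 for Psat1 and 55.2 for Psph. The plot of the enzymes step by step shows this difference in shape in each library.

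**Figure D2:**
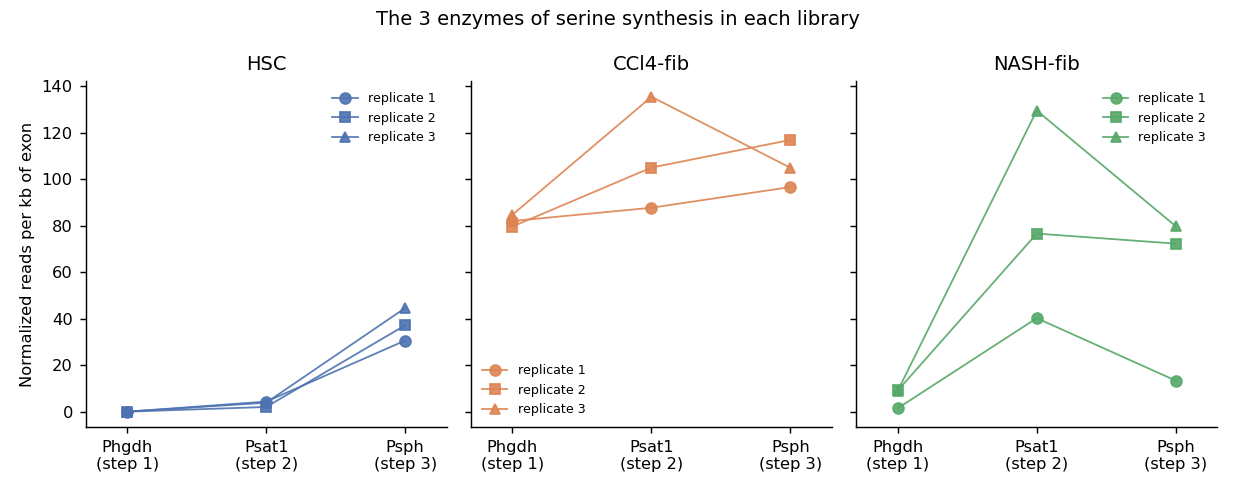
Normalized reads per kilobase of exon (y axis, linear, shared) of Phgdh, Psat1 and Psph, in the order of their reactions (x axis), with 1 line per library and 1 panel per group. In HSCs the lines stay near 0 until Psph, in CCl4-fib they start near 80, and in NASH-fib they start below 10 and peak at Psat1.

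Shmt2 (chromosome 10, 127517123 to 127522444, minus strand), the mitochondrial serine hydroxymethyltransferase, had values of 36.2, 71.4 and 50.2 in HSCs. It had 217, 152 and 72.5 in CCl4-fib, where replicate 3 lay just above the highest HSC library. In NASH-fib it was 51.7, 52.6 and 53.1, inside the range of HSCs. The log2 difference was 1.39 for CCl4-fib and 0.05 for NASH-fib against HSCs, and -1.34 between the fibroblast groups, each with an SE of 0.48. Shmt2 shares 32 exon bases with Ndufa4l2 on the opposite strand. Ndufa4l2 had values of 701, 363 and 26.7 in CCl4-fib, in the same order as Shmt2, and 4 to 10 reads in HSC libraries. Its level was 16.3, 168 and 38.3 for replicates 1, 2 and 3 of NASH-fib, where Shmt2 was 51.7, 52.6 and 53.1. The part of the shared bases in the values of Shmt2 was not tested.

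Shmt1 (chromosome 11, 60788897 to 60811265, minus strand), the cytosolic partner, ran the other way. HSCs had values of 47.9, 97.6 and 187. CCl4-fib had 23.8, 15.3 and 28.6, and NASH-fib 121, 74.8 and 220.2. All CCl4-fib libraries were below all others, and the other groups overlapped across a wide spread. The log2 difference was -2.08 for CCl4-fib against HSCs and 2.47 for NASH-fib against CCl4-fib (SE 0.59 each). Hepatocyte markers, 12 genes all read in every group, moved with Shmt1: replicates 1, 2 and 3 summed to 20627, 24587 and 41707 among HSCs, to 2146, 2164 and 3127 among CCl4-fib, and to 24584, 6537 and 26520 among NASH-fib. Alb alone had 9062, 14161 and 11657, then 679, 617 and 829, then 14897, 1787 and 7894. Within HSCs and within NASH-fib, the order of the libraries by Shmt1 was that by the summed hepatocyte markers. Within CCl4-fib the orders differed, and Alb alone did not follow the order of Shmt1 in HSCs or NASH-fib. The part of these markers in the result was not tested. In bulk libraries, fewer cells of a type and less RNA per cell cannot be told apart. Smcr8, which shares 184 exon bases with Shmt1 on the opposite strand, had values of 134 to 157 in HSCs, 33.4 to 70.6 in CCl4-fib and 109 to 119.6 in NASH-fib. Its part in the values of Shmt1 was not tested.

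Mthfd2 (chromosome 6, 83305704 to 83317604, minus strand), the mitochondrial dehydrogenase and cyclohydrolase that is abundant in embryonic and dividing cells, was low throughout. HSC libraries had values of 5.84, 4.37 and 2.39, CCl4-fib libraries 35.7, 17.9 and 26.7, and NASH-fib libraries 8.16, 4.45 and 10.8. CCl4-fib libraries were above all others, and NASH-fib and HSCs overlapped. The log2 difference was 2.42 for CCl4-fib against HSCs and -1.67 for NASH-fib against CCl4-fib (SE 0.61 each). Summed over 8 proliferation markers, HSC libraries reached 332, 377 and 325, CCl4-fib libraries 474, 696 and 831, and NASH-fib libraries 464, 350.02 and 279, so these markers too were higher in CCl4-fib. Mki67 alone did not separate the groups, at 52.6 to 74.8 in HSCs, 27.8 to 117 in CCl4-fib and 46.2 to 213 in NASH-fib. The part of dividing cells in the values of Mthfd2 was not tested.

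Mthfd1l (chromosome 10, 3973075 to 4156130, plus strand) releases formate from mitochondria, and its groups were not apart in any comparison. HSC libraries had values of 19.9, 7.28 and 2.39, CCl4-fib libraries 8.73, 12.8 and 23.9, and NASH-fib libraries 13.6, 16.9 and 6.88. The log2 differences (0.84, 0.60 and -0.23) were close to or below their SE of 0.76. HSC libraries alone ran from 2 to 17 reads, and the differences between group means lay within the spread between libraries.

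Aldh1l2 (chromosome 10, 83487447 to 83534140, minus strand), the mitochondrial enzyme that oxidizes formyl folate to carbon dioxide, had 1 read in all HSC libraries together. CCl4-fib libraries had values of 74.6, 27.2 and 129.8, and NASH-fib libraries 19.0, 44.5 and 14.7. All fibroblast libraries were thus far above HSCs, and the fibroblast groups overlapped, CCl4-fib replicate 2 being below NASH-fib replicate 2. The ratio of reads per depth to HSCs was 179 (95% counting interval 31.8 to 7092) for CCl4-fib and 65.3 (11.4 to 2613) for NASH-fib. Aldh1l2 shares 1056 exon bases with D10Wsu102e on the opposite strand. That gene had values of 127 to 208 in HSCs and of 97.9 to 292 in the fibroblasts, and its part in the values of Aldh1l2 was not tested.

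Pycr1 (chromosome 11, 120635712 to 120643670, minus strand), which reduces pyrroline carboxylate to proline in mitochondria, followed Phgdh closely. It had 0 reads in each HSC library. Its values were 85.7, 91 and 88.7 in CCl4-fib, from 108, 107 and 93 reads, and 2.72, 8.91 and 8.85 in NASH-fib, from 2, 10 and 9 reads. The groups did not overlap, but NASH-fib replicate 1, with 2 reads, was under the floor of 3 reads. The separation of NASH-fib from HSCs thus rests on replicates 2 and 3. Against the floor of the HSC libraries its CCl4-fib mean was at least 23.2-fold higher and its NASH-fib mean at least 1.79-fold higher, and it was lower by 3.65 on the log2 scale (-3.65, SE 0.61) in NASH-fib than in CCl4-fib.

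Slc1a4 (chromosome 11, 20302180 to 20332713, minus strand), the exchanger of serine, alanine and other small neutral amino acids also called ASCT1, had its highest values in NASH-fib. These were 16.3, 51.7 and 10.8, while HSC libraries had 5.84, 4.37 and 0 and CCl4-fib libraries 2.38, 3.40 and 14.3. NASH-fib libraries were above all HSC libraries but overlapped with CCl4-fib, in which replicate 3 exceeded NASH-fib replicate 3. The log2 difference was 2.73 for NASH-fib against HSCs, 0.88 for CCl4-fib against HSCs and 1.85 for NASH-fib against CCl4-fib, each with an SE of 0.96. Of the 10 genes, Slc1a4 and Pycr1 hold the composite element shown above. Slc1a4 had its highest mean in NASH-fib, with libraries that overlapped with CCl4-fib, and Pycr1 had its highest mean in CCl4-fib. The part of the element in these values was not tested.

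Across all 13651 tested genes, a gene was called by limma where its log2 fold change was 1 or more in size with a Benjamini-Hochberg adjusted p under 0.05. All 10 genes passed the filter on low values. For Phgdh, Psat1, Mthfd2, Aldh1l2, Slc1a4 and Pycr1 no HSC library reached 10 reads, so these 6 passed through the fibroblast libraries alone. In CCl4-fib against HSCs, 5 were called higher (Phgdh, Psat1, Mthfd2, Aldh1l2 and Pycr1) and 1 lower (Shmt1), where 16.2% of all tested genes were called higher and 11.7% lower. Counted by libraries that do not overlap, 7 were higher and 1 lower, where the shares of all tested genes were 27.8% and 20.9% (48.6% in either direction). In NASH-fib against HSCs, 4 were called (Phgdh, Psat1, Aldh1l2 and Pycr1), all higher, beside 8.23% of all tested genes called higher and 4.3% lower. By libraries that do not overlap, 5 stood apart from HSCs, all higher, beside 12.7% higher and 11.6% lower (24.4% in either direction). Among these 5, Phgdh and Pycr1 had 2 reads each in NASH-fib replicate 1, under the floor. In NASH-fib against CCl4-fib, 1 was called higher (Shmt1) and 2 lower (Phgdh and Pycr1), beside 4.97% and 5.66%. By libraries that do not overlap, 1 was higher and 5 lower, beside 17.1% and 22% (39.1% in either direction). With edgeR on the recovered reads the split of all calls in this comparison turned, from 678 higher and 773 lower to 802 higher and 563 lower, and the same 3 genes were called. The first and the second comparison share the HSC libraries, the first and the last the CCl4-fib libraries. Since the genes were picked from these libraries, nothing is read from these counts.

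The median log2 difference of the 10 genes was 1.96 for CCl4-fib against HSCs, where that of all tested genes was 0.18. It was 1.74 for NASH-fib against HSCs, beside -0.02, and 0.79 when Phgdh and Pycr1 were set at their lower bounds. It was -1.32 for NASH-fib against CCl4-fib, beside -0.11. With a term for the date-like label in the descriptions, the call of Phgdh, Aldh1l2 and Pycr1 was lost in NASH-fib against HSCs, which left 1 gene, Psat1. The call of Shmt1 in CCl4-fib against HSCs was lost without HSC replicate 2 or 3 or CCl4-fib replicate 1 or 2, that of Mthfd2 without CCl4-fib replicate 1, and that of Phgdh in NASH-fib against CCl4-fib without CCl4-fib replicate 2. In the last comparison, the call of Shmt1 was lost without any 1 of CCl4-fib replicates 1, 2 and 3 and NASH-fib replicates 1 and 3.

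**Figure D3:**
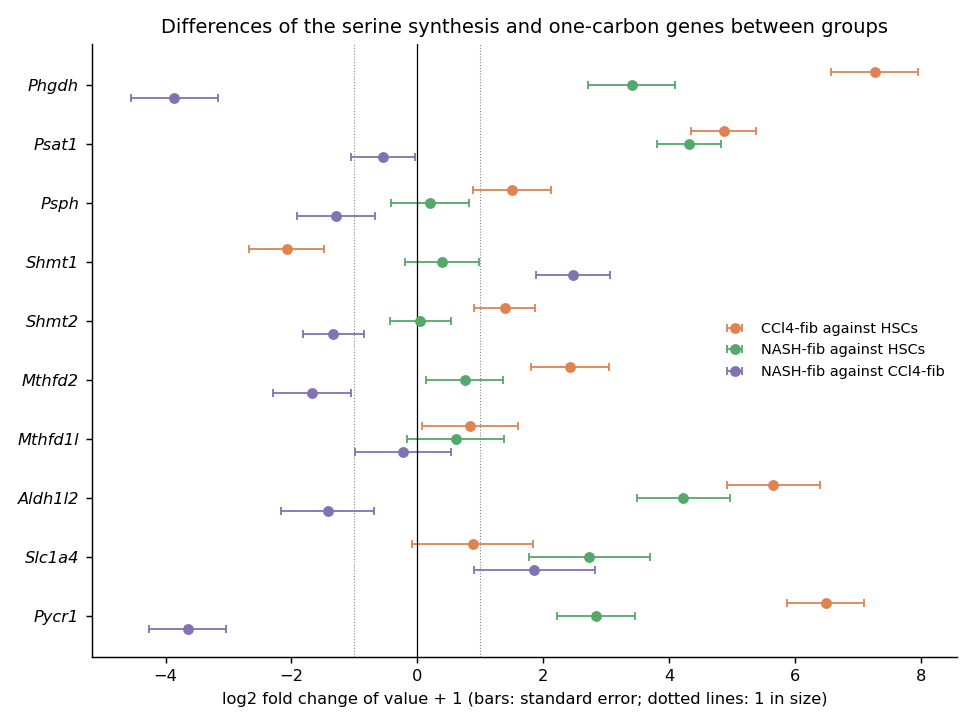
Log2 fold change of value + 1 (x axis) of each of the 10 genes (y axis) in 3 comparisons, with bars for 1 SE on either side and dotted lines at 1 in size. The differences of Phgdh and Pycr1 from HSCs depend on the pseudocount, since HSCs have 0 reads there, and Shmt1 is the gene whose difference is below -1 for CCl4-fib against HSCs.

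Libraries that share a date-like label could be set side by side in 3 cases. Among HSC replicate 2, CCl4-fib replicate 1 and NASH-fib replicate 1, Phgdh had 0, 152 and 2.72, Psat1 4.37, 189.7 and 87, and Shmt1 97.6, 23.8 and 121. Between HSC replicate 3 and CCl4-fib replicate 2, Phgdh had 0 and 148, Psat1 8.37 and 227, and Shmt1 187 and 15.3. Between CCl4-fib replicate 3 and NASH-fib replicates 2 and 3, Phgdh had 157, 16.9 and 16.7, Psat1 had 293, 166 and 280.1, and Shmt1 had 28.6, 74.8 and 220.2. The direction of each of these 3 genes between CCl4-fib and the other groups was the same within every shared label. For Phgdh and Shmt1, and for Psat1 against HSCs, this follows from groups that do not overlap, so it says nothing about the label. Psat1 overlapped between the fibroblast groups, and its 293 and 280.1 within 1 label lay close together. HSC replicate 1 shares its label with no other library.

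Ranked by level per kilobase, HSCs had Shmt1 first (54.0 ± 34.2, SD, n = 3), then Psph (37.5 ± 7.01), Shmt2 (23.0 ± 7.72) and Psat1 (3.41 ± 1.22), and the other 6 genes were below 3 per kilobase. The libraries of Shmt1 and Psph overlapped, as did those of Psph and Shmt2. In CCl4-fib the order was Psat1 (109 ± 24.2), Psph (106 ± 10.2), Phgdh (82.2 ± 2.54), Shmt2 (64.3 ± 31.7) and Pycr1 (30.5 ± 0.912). Psat1 and Psph lay within each other's spread, and the libraries of Phgdh fell inside the wide range of Shmt2. Mthfd2, Aldh1l2 and Shmt1 followed together at 13.0, 12.9 and 11.0. In NASH-fib the order was Psat1 (82.2 ± 44.9), Shmt1 (67.6 ± 36.2), Psph (55.2 ± 36.4) and Shmt2 (22.9 ± 0.311), of which the libraries of each overlapped with those of the next. The other 6 genes were between 2.35 (Pycr1) and 6.71 (Slc1a4) there. The cytosolic Shmt1 was thus first in HSCs, second in NASH-fib and eighth in CCl4-fib.

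Set against a paralog in the same library, Shmt2 exceeded Shmt1 in CCl4-fib and was below it elsewhere. The log2 ratio of Shmt2 to Shmt1 per kilobase was 2.40 ± 1.08 (SD, n = 3) in CCl4-fib, from 1.15 to 3.07, and -1.06 ± 0.84 in HSCs and -1.41 ± 0.77 in NASH-fib. The CCl4-fib libraries did not overlap with the others.

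The ratio of Aldh1l2 to its cytosolic paralog Aldh1l1 was -0.80 ± 1.40 on the log2 scale in CCl4-fib, -3.18 ± 1.88 in NASH-fib and -8.58 ± 0.38 in HSCs, where Aldh1l2 had 1 read. Both ends of this ratio differed, since Aldh1l1 had values of 151 to 564 in HSCs and 38.2 to 89.7 in CCl4-fib. Mthfd1l stayed below the cytosolic Mthfd1 in all groups, at -3.50 ± 1.92, -3.36 ± 0.86 and -2.65 ± 0.74 in HSCs, CCl4-fib and NASH-fib, and Mthfd2 and Mthfd2l overlapped between groups (-0.65 ± 2.21, 0.85 ± 0.81 and -0.70 ± 0.84). Slc1a4 was far below Slc1a5, the carrier of glutamine and other neutral amino acids also called ASCT2, in every library, at -4.52 ± 1.56, -7.11 ± 1.37 and -4.57 ± 0.97 in the same order of groups. Slc1a5 had values of 46.6 to 56.1 in HSCs, 525 to 748 in CCl4-fib and 254 to 476 in NASH-fib.

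**Figure D4:**
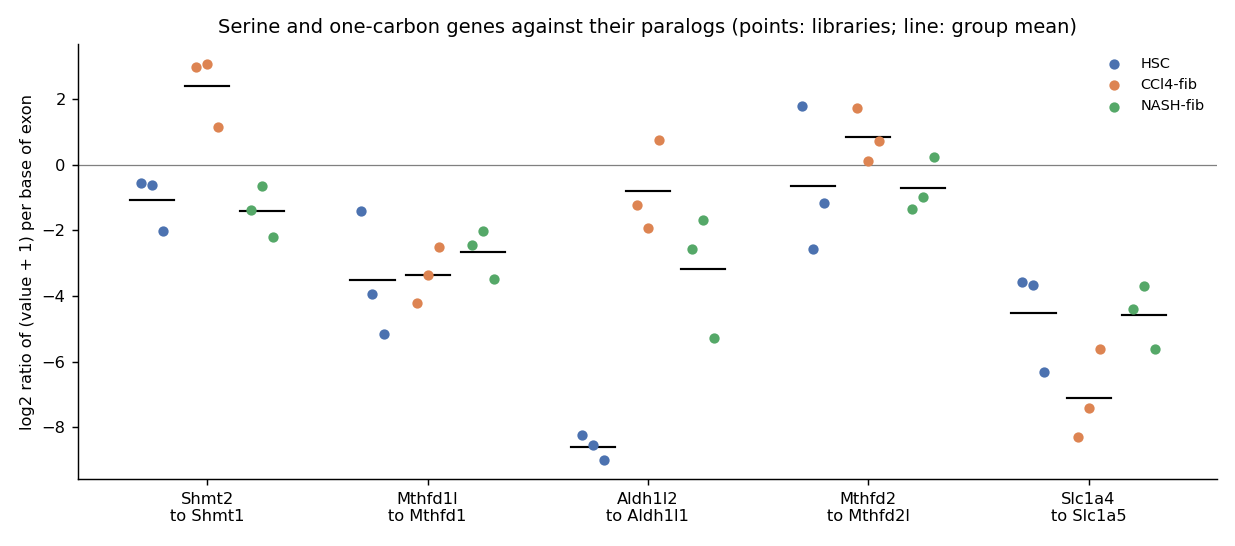
Log2 ratio of value + 1 per base of exon (y axis) of 5 of the genes to a paralog (x axis), with 1 point per library and a line at the mean of each group (n = 3). The ratio of Shmt2 to Shmt1 is above 1 in the 3 CCl4-fib libraries and below 0 in the other 6, and the HSC points of Aldh1l2, below -8, rest on 1 read.

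Over the 9 libraries, the pattern of log2(value + 1) of Phgdh was most like that of Pycr1 among the other 9 genes (Pearson's r = 0.997), and that of Psat1 most like Aldh1l2 (0.932). Shmt1 was negative to Phgdh (-0.679) and to Pycr1 (-0.707). The libraries fall into 3 groups of 3, which these values mostly reflect, and they are given as a description. Among all other tested genes, the 3 most like Phgdh were Ints7, a subunit of the Integrator complex (0.994), Ch25h, cholesterol hydroxylase (0.992), and Ddr1, a collagen receptor (0.989). The 3 most like Psat1 were Gprc5a (0.993), Sfrp1, a secreted Wnt inhibitor (0.991), and Itih5 (0.990), and the 3 most like Mthfd2 were Tmem202 (0.968), Tbx4 (0.966) and Dtl (0.951). The 3 genes most like Phgdh had higher means in CCl4-fib than in NASH-fib (368 against 109.9 for Ints7), and so did Itih5 (1770 against 715) and Gprc5a (119 against 84.2), while Sfrp1 had 1122 against 1215.

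Markers of other cells also differed between groups, and their part in the results above was not tested. The summed values of 8 macrophage markers ran from 3230 to 12646 in HSCs, from 357 to 786 in CCl4-fib and from 2980 to 6162 in NASH-fib. Those of 8 sinusoidal endothelial markers ran from 7188 to 15348, from 230 to 271 and from 1118 to 3754. The ranges of 6 cholangiocyte markers were 63.1 to 226, 3475 to 4755 and 5964 to 11605, with Cldn4 at 0 in HSCs. Those of 6 smooth muscle markers were 131 to 446, 3142 to 13534 and 3061 to 20102, and those of 5 mesothelial markers 154 to 574, 9989 to 14579 and 5375 to 17927. In CCl4-fib, low macrophage, endothelial and hepatocyte markers thus went with high Phgdh and Pycr1. The cholangiocyte, smooth muscle and mesothelial markers were higher there than in HSCs. Within NASH-fib, replicates 1, 2 and 3 had hepatocyte sums of 24584, 6537 and 26520 and Phgdh values of 2.72, 16.9 and 16.7.

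Other genes of these pathways were taken from 8 lists written from general knowledge, which hold 113 genes, 107 of them tested. In CCl4-fib against HSCs, 18 rose and 16 fell, 31.8% of those tested beside 27.8% of all tested genes. In NASH-fib against HSCs 9 rose and 1 fell (9.35% beside 12.5%), and in NASH-fib against CCl4-fib 7 were called higher and 6 lower (12.1% beside 10.6%). Of 16 tested genes of the ATF4 and amino acid response, 5 were called in CCl4-fib against HSCs, all higher. In NASH-fib against HSCs 5 were called too, all higher. Each is 31.25% of the list, where 16.2% and 8.23% of all tested genes were called higher (27.8% and 12.5% in either direction). The median of the list was 0.44 and 0.91 on the log2 scale in these comparisons, beside 0.18 and -0.02 for all tested genes.

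Asns, which makes asparagine, had values of 16.4, 1.46 and 15.5 among HSCs, of 365, 248 and 201 among CCl4-fib, and of 40.8, 118 and 98.3 among NASH-fib libraries. It rose by 4.89 (SE 0.75, adjusted p = 0.001, limma with Benjamini-Hochberg adjustment) and by 3.15 (SE 0.75, adjusted p = 0.0189) on the log2 scale. The second call was lost with a fit on only the groups compared, with the date term, and without NASH-fib replicate 2 or 3. Stc2 had 0 reads in HSCs and was at least 7.19-fold higher in CCl4-fib and 5.61-fold in NASH-fib, the latter not called with the date term. Vldlr, the receptor for very-low-density lipoprotein, had 2 reads in all HSC libraries and 154 (counting interval from 42.4) and 277 (from 76.4) times the reads per depth in CCl4-fib and NASH-fib. Atf4 itself had values of 202 to 377, 217 to 324 and 192 to 259 in the 3 groups, with log2 differences of -0.26, -0.41 and -0.15 (SE 0.37 each) that did not pass the test.

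Of 15 tested genes of proline, glutamate and asparagine metabolism, 3 rose and 2 fell in CCl4-fib against HSCs. This is 33.3% of them, beside 27.8% of all tested genes. Aldh18a1, which makes the precursor of proline from glutamate, rose by 1.58 (SE 0.39, limma adjusted p = 0.0131), and Pycrl, the cytosolic pyrroline carboxylate reductase now named Pycr3, by 2.01 (SE 0.47, limma adjusted p = 0.00976). The call of Aldh18a1 was lost without CCl4-fib replicate 1, and both were lost with the date term. Pycrl was also lower in NASH-fib than in CCl4-fib, by -2.85 on the log2 scale (limma adjusted p = 0.0102), with values of 225, 208 and 139 against 19.0, 46.3 and 17.7. Pycr1 and Pycrl were thus both at lower values in every NASH-fib library than in every CCl4-fib library. Among 15 amino acid transporters, 5 rose and 3 fell in CCl4-fib against HSCs (53.3%), and 3 rose and 1 fell in NASH-fib against HSCs (26.7%). Of all tested genes, 27.8% and 12.5% were called in these comparisons. Slc1a5 rose in both, by 3.47 (SE 0.36, limma adjusted p = 9.43e-05) and by 2.78 (SE 0.36, limma adjusted p = 0.000524).

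Of 15 genes of the cytosolic folate cycle, 3 rose and 3 fell in CCl4-fib against HSCs (40%, beside 27.8% of all tested genes). Tyms, thymidylate synthase, rose from 18.7, 37.9 and 75.3 to 294, 350.4 and 527 (3.29 on the log2 scale, SE 0.56, limma adjusted p = 0.0017), and had 40.8, 104 and 69.8 in NASH-fib. Of 10 genes of mitochondrial folate and glycine cleavage, 3 were called in that comparison, all lower (Gldc, Amt and Dmgdh). This is 30%, where 27.8% of all tested genes were called and 11.7% were called lower. Of 13 tested genes of the methionine cycle, transsulfuration and serine breakdown, 5 were called (38.5%). Of all tested genes, 27.8% were called and 11.7% were called lower. The list median was -2.39, beside 0.18 for all tested genes. The 5 were all lower (Mat1a, Bhmt, Chdh, Cth and Agxt2). All of these but Cth were called higher in NASH-fib than in CCl4-fib, calls that were lost without CCl4-fib replicate 2 or NASH-fib replicate 3. Mat1a, the methionine adenosyltransferase of hepatocytes, had values of 337 to 2062 in HSCs, 53.4 to 92.1 in CCl4-fib and 443 to 2672 in NASH-fib. These genes were low where the hepatocyte markers above were low, and the part of hepatocyte RNA was not tested. Of 12 aminoacyl-tRNA synthetases Tars alone rose in CCl4-fib against HSCs, and of 12 genes of purine synthesis Adsl and Impdh2 did. These are 8.33% and 16.7%, where 16.2% of all tested genes were called higher and 27.8% in either direction. Paics alone of the purine list rose in NASH-fib against HSCs (8.33%). There 8.23% of all tested genes were called higher and 12.5% in either direction. The call of Adsl was lost without HSC replicate 1 or 2 or any CCl4-fib replicate, and that of Paics without any HSC replicate or NASH-fib replicate 3.

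**Figure D5:**
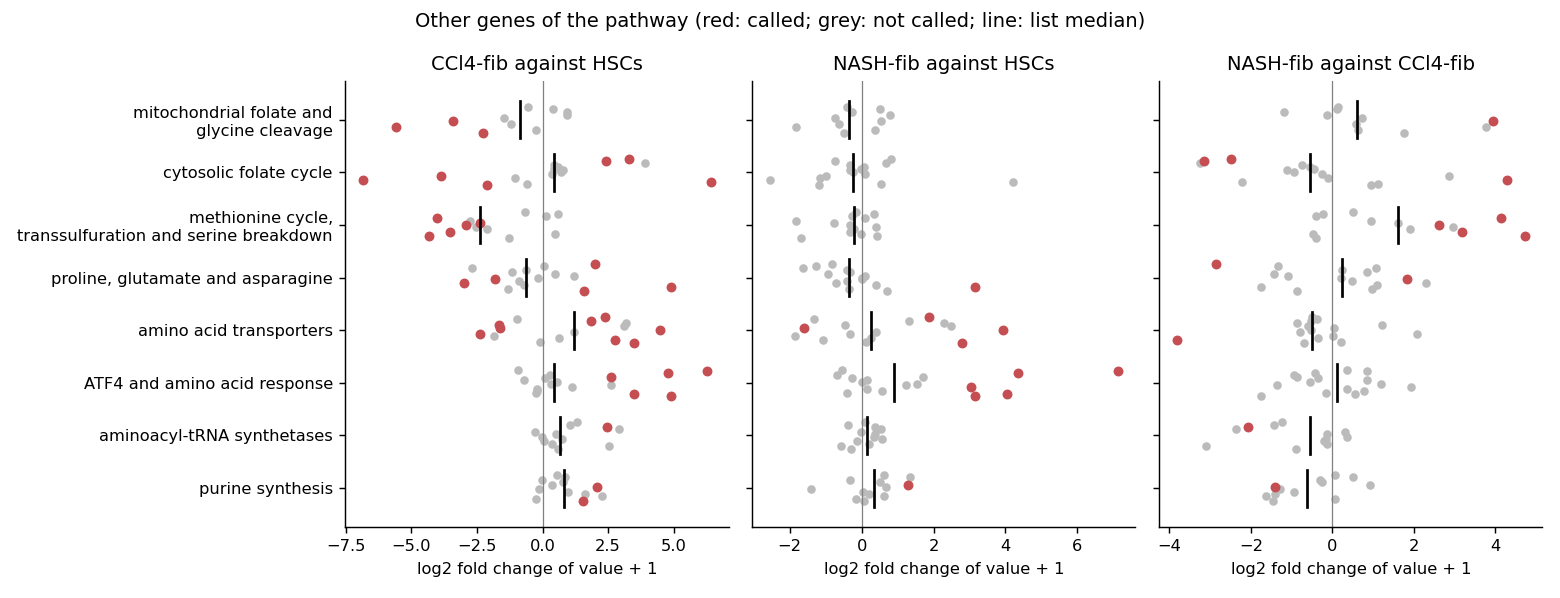
Log2 fold change of value + 1 (x axis, a separate scale per panel) of the 107 tested genes of 8 pathway lists (y axis) in 3 comparisons; each point is a gene, red where called by limma and grey otherwise, and the line is the median of the list. The list of the methionine cycle has its median at -2.39 for CCl4-fib against HSCs.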

How the data were processed

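The 9 libraries (3 groups of 3) were SMARTer-amplified single-end RNA-seq. The authors aligned reads to mm10 with STAR, counted reads of either strand on RefSeq exons with HOMER (at most 3 reads per position, 1 row per gene; treatment of multi-mapping reads is not given in the sources used here) and scaled them for DESeq2, so the deposited values are a normalized signal per gene. The header command names 10 libraries, of which 9 are columns here; 0 value columns were left unused. Whole reads were recovered for 100% of the values above 0 (tolerance 0.02 in the normalized units).

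Because the values are not counts, limma 3.58.1 was fitted to log2(value + 1) of the genes kept by filterByExpr of edgeR 4.0.16 on recovered reads (minimum count 10), with a trend and the 3 groups together, and p-values were adjusted by Benjamini-Hochberg over 13651 genes. Recovered reads were tested as an alternative with the edgeR quasi-likelihood test, which called 1876 genes higher and 1716 lower in CCl4-fib against HSCs, 1095 and 481 in NASH-fib against HSCs, and 802 and 563 in NASH-fib against CCl4-fib, and with DESeq2 1.42.0. The code was tested on simulated data. Other alternatives were pseudocounts of 0.5 and 5, upper-quartile scaling, no filter, the compared groups only, a replicate block, a date term and each library left out.

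The 10 genes, the pathway and marker lists and the tests were chosen with earlier results of these data known. Named are the 10 genes, their paralogs, Atf4, Asns, Aldh18a1, Alb and Mki67, up to 2 called genes per list, comparison and direction with the largest fold change and no overlap of libraries, and the 3 genes most correlated with Phgdh, Psat1 and Mthfd2. Genes named outside this rule, after their values were seen, are the exon neighbours, Cldn4 and the remaining members of lists with 5 or fewer calls. The values of 1 paralog are not reported here.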

Additional observations from a re-analysis of the deposited data

How the results depend on the processing

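For the 10 genes, leaving out each library in turn gave between 4 and 8 calls in CCl4-fib against HSCs, 4 in every case in NASH-fib against HSCs, and between 1 and 3 in NASH-fib against CCl4-fib. In the first comparison the call of Shmt1 was lost without HSC replicate 2, HSC replicate 3, CCl4-fib replicate 1 or CCl4-fib replicate 2, and that of Mthfd2 without CCl4-fib replicate 1 or with the date term. Shmt2 and Psph were called in addition by DESeq2 and without NASH-fib replicate 1, Psph with a fit on only the groups compared, and Shmt2 without CCl4-fib replicate 3. In NASH-fib against HSCs the date term left 1 call, and a pseudocount of 5 left 3, without Pycr1. In NASH-fib against CCl4-fib the call of Phgdh was lost without CCl4-fib replicate 2, which left 1 gene, and that of Shmt1 also with the date term. For the other pathway genes, leaving out each library gave between 26 and 46, between 6 and 11, and between 3 and 16 calls in the same order of comparisons, the lowest count of the last without CCl4-fib replicate 2 or NASH-fib replicate 3. With only the groups compared, 6 were called in NASH-fib against HSCs. With the date term the counts were 4 in NASH-fib against HSCs and 8 in NASH-fib against CCl4-fib, and DESeq2 called 27 there (18 higher and 9 lower, beside 7 and 6). The cause of these changes was not tested. Over all tested genes, 46.7% of the calls in NASH-fib against CCl4-fib were higher, beside 58.8% with edgeR and 58% with the date term. In NASH-fib against HSCs 65.7% were higher, beside 82.2% with the date term. The median of all genes in NASH-fib against CCl4-fib moved from -0.11 to 0.12 with DESeq2 and 0.14 with edgeR, and that in CCl4-fib against HSCs from 0.18 to 0.02 and 0.0014. Replicate numbers did not pair the libraries, with correlations of deviations from the group means between -0.47 and 0.51 for equal numbers, and a replicate block left 6, 4 and 3 of the 10 genes called and 32, 10 and 12 of the others. Of 2340 other values recomputed, 2191 stayed on their side of the threshold, 101 lost and 21 gained it, 27 without a test moved, and 0 reversed. Depth limits Phgdh, Psat1, Mthfd2, Aldh1l2, Slc1a4 and Pycr1, for which no HSC library reached 10 reads. Phgdh and Pycr1 also had only 2 reads each in NASH-fib replicate 1.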
